A study of Mus musculus with 6 samples.

Results

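The 40 genes described here are 22 genes of the S phase of the cell cycle, in which DNA is copied, and 18 genes of mitosis, in which the copied chromosomes are divided. They were chosen by name for their known roles, and they are 40 of the 46603 genes listed for each library. Whole bone marrow came from 3 mice that lack nuclear myosin 1 (NM1 KO) and 3 wild-type mice (NM1 WT), all C57/Bl6 and 8 months old, and 1 RNA-seq library was made per mouse. Nuclear myosin 1 is the nuclear isoform of an actin-based motor protein whose gene is Myo1c. The marrow was spun out of leg bones and was not sorted, so each library mixes all marrow cell types. In such bulk samples a lower level can come from fewer cells of a type or from less RNA per cell, and these cannot be told apart.

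Cyclin E kinase activity helps to release E2F transcription factors, which switch on the genes needed to copy DNA. Licensing proteins load the MCM helicase on replication origins, and the fork enzymes follow once S phase starts. Mitosis genes come on later, through the CHR element bound by MuvB complexes and through CCAAT boxes bound by NF-Y. Bone marrow holds many dividing cells, mainly erythroblasts, granulocyte precursors, B-cell precursors and multipotent progenitors, and transcripts of S phase and mitosis genes are commonly read as a measure of how many cells divide.

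The promoters of both sets are shown first, because the members were chosen by role and the sequence before each gene's start was not used to choose them. RefSeq promoter windows on GRCm38.p6, from 250 bases before to 50 bases after the start, were found for 33 members, 18 of S phase and 15 of mitosis. Mcm4, Ccne2, Gins1, Gins2, Ccna2, Tpx2 and Aurkb had no window in the table used here. The 150 bases before the start are printed 5′ to 3′ on the gene's strand for 2 S phase genes and 4 mitosis genes, chosen to show the motifs that set S phase and mitosis members apart. Capitals mark E2F letters, CHR letters and CCAAT boxes on either strand. The starts are those of RefSeq and can differ from the gene bounds given with the levels below. For Cdc6 the RefSeq start lies inside those bounds (chr11:98907801-98923940), and so do the bases printed for it.
Mcm6, chr1:128359706-128359855, minus strand: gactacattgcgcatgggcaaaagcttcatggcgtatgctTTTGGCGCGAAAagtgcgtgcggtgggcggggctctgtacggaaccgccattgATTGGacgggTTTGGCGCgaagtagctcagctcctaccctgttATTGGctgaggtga
Cdc6, chr11:98908001-98908150, plus strand: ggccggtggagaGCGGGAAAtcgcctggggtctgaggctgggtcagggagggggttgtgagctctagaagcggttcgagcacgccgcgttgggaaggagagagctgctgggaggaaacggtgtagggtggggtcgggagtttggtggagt
Mki67, chr7:135716380-135716529, minus strand: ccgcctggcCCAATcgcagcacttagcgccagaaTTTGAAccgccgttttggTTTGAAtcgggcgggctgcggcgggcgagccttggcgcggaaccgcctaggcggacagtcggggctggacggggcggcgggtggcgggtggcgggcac
Cdk1, chr10:69352913-69353062, minus strand: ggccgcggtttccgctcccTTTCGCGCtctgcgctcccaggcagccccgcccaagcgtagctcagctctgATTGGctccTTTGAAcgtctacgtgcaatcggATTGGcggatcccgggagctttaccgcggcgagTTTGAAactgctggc
Top2a, chr11:99024190-99024339, minus strand: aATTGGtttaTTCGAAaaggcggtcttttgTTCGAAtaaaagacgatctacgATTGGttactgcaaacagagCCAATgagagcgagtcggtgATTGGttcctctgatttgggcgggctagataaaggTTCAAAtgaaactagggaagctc
Cdc20, chr4:118437344-118437493, minus strand: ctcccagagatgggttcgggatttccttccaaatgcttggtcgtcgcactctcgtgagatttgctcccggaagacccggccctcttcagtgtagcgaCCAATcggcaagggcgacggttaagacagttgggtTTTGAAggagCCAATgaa

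The E2F search took TTTCCCGC or TTTGGCGC or TTTCGCGC or TTTGCCGC or TTCCCGCC or TTGGCGCC on either strand, and overlapping matches were kept. It matched the windows of 11 of 18 S phase members (61.1%), against 2 of 15 mitosis members (13.3%) and 8.90% of the 10699 tested genes with a window. The S phase members with a match were Mcm3, Mcm5, Mcm6, Mcm7, Cdc6, Cdt1, Rrm1, Pola1, Prim1, Rfc4 and Chek1, and the mitosis members were Cdk1 and Ccnb1. In Mcm6 a match lay on each strand from 110 to 99 bases before the start, overlapping in the capitals printed above, and another lay from 47 to 40 bases before it. In Chek1 the only match lay after the start, at bases 42 to 49.

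The CHR search took TTTGAA or TTTAAA or TTCGAA on either strand. It matched all 15 mitosis windows, 6 of 18 S phase windows (33.3%) and 25.1% of tested genes. TTTGAA alone matched 11 of 15 mitosis windows (73.3%), 2 of 18 S phase windows (11.1%) and 14.8% of tested genes. CCAAT boxes matched 14 of 15 mitosis windows (93.3%), 11 of 18 S phase windows (61.1%) and 42.6% of tested genes. At least 2 CCAAT boxes stood in 10 mitosis windows (66.7%), 5 S phase windows (27.8%) and 16.2% of tested genes. Top2a held 6 CCAAT boxes and 4 CHR matches in its window, the most of either among the mitosis members. These are matches to short letters and not measured binding sites. The whole-window shares include the 50 bases after the start: within the 250 bases before it, CHR letters matched 73.3% of mitosis members against 23.1% of tested genes, and E2F letters matched 38.9% of S phase members against 7.55%. TTTGAA alone matched 6 of 15 mitosis members there, against 13.3% of tested genes.

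**Figure D1:**
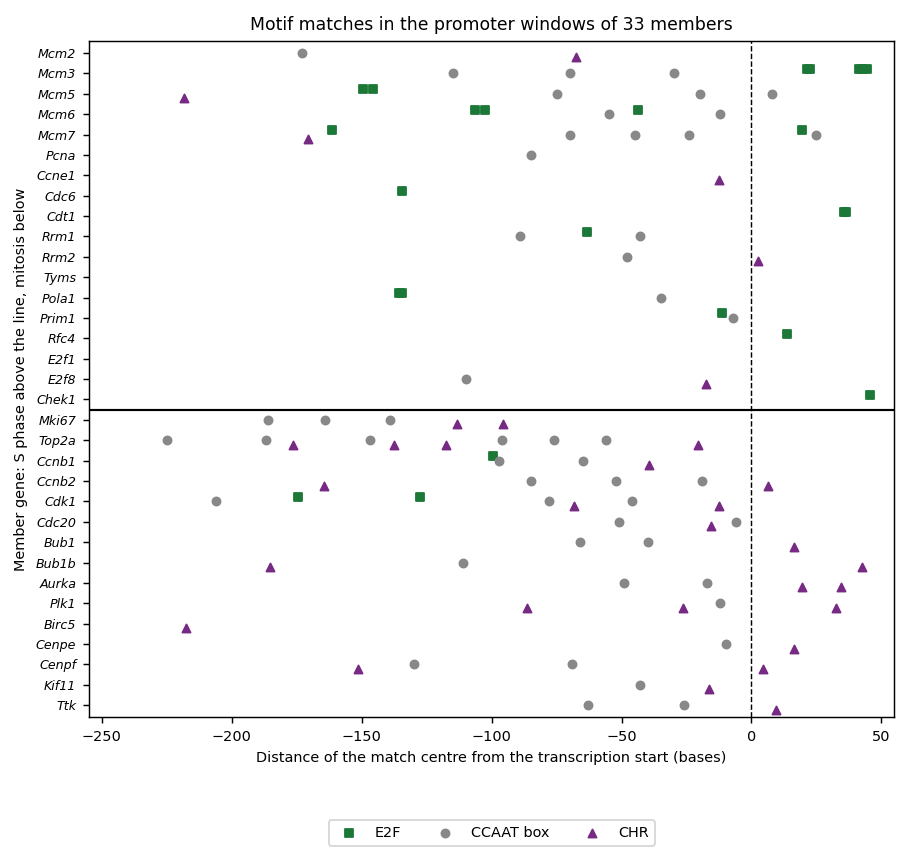
Centre of each E2F (green squares), CCAAT (grey circles) and CHR (purple triangles) match in the promoter windows of the 33 members, in bases from the transcription start (dashed line), with S phase members above the horizontal line and mitosis members below it. E2F matches fall in 11 S phase and 2 mitosis rows, while CHR matches fall in all 15 mitosis rows and 6 S phase rows.

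Library totals were 21101616 to 22618802 counts in NM1 KO and 15145052 to 17580660 in NM1 WT, so every NM1 KO library was deeper. Levels are CPM, read counts brought to a common library size with TMM factors. The test was edgeR's quasi-likelihood test, with p adjusted by Benjamini-Hochberg over 15069 tested genes and a threshold of 0.05. Of these genes 117 passed (0.776%), 89 higher and 28 lower in NM1 KO. Counts over the whole Myo1c gene averaged 64.2 ± 8.28 CPM over NM1 KO against 102.0 ± 12.4 CPM over NM1 WT (SD, n = 3 each), and they do not check the loss of the nuclear form alone. The 4 Y-linked genes Ddx3y, Uty, Kdm5d and Eif2s3y summed to 2723 to 4566 counts in NM1 KO 1, NM1 KO 2 and NM1 WT 2 and to 0 counts in NM1 KO 3, NM1 WT 1 and NM1 WT 3. In log2 CPM across genes, NM1 WT 2 correlated more closely with NM1 KO 1 (0.969) and NM1 KO 3 (0.962) than with NM1 WT 1 (0.957) and NM1 WT 3 (0.957). Its correlation with NM1 KO 2 was 0.956. NM1 WT 2 and NM1 KO 3 bear on several results below, and only some of these are also given with 1 of them left out.

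All 40 members were expressed and tested, with 207 to 27759 counts per library. No member of either set passed the threshold, and edgeR's lowest adjusted p was 0.0858 for Chek1 among S phase members and 0.128 for Mki67 among mitosis members. At an unadjusted p under 0.05, 7 of 22 S phase members (Ccne1, Ccne2, Cdc6, Rrm2, Prim1, E2f8 and Chek1) and 1 of 18 mitosis members (Mki67) lay below that limit, all with higher means in NM1 KO. Of all 15069 tested genes 16.8% lay below it in either direction, 1272 higher and 1253 lower in NM1 KO. DESeq2 called 1 member in each set at its adjusted threshold, Chek1 and Mki67, 2 of 40 members against 5.27% of all tested genes in the same fit. The 3 NM1 KO libraries all lay above the 3 NM1 WT libraries for Ccne2, Cdc6, Rrm2, Prim1, Chek1, Mki67 and Cenpf, 7 of 40 members, against 10.8% of tested genes. The reverse order was found for 0 members, against 9.75% of tested genes.

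The S phase members leaned towards higher levels in NM1 KO. Of 22, 20 had a positive log2 fold change (NM1 KO over NM1 WT), with a median of 0.25, against a median of 0.0019 over all tested genes. Among mitosis members 14 of 18 were positive, with a median of 0.051. Without NM1 KO 3 the counts were 13 of 22 and 7 of 18 and the medians 0.10 and -0.08. Leaving out NM1 WT 2 gave medians of 0.33 for S phase and 0.085 for mitosis. The 95% intervals lay within a 2-fold change in either direction for 39 of the 40 members, the exception being Chek1.

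**Figure D2:**
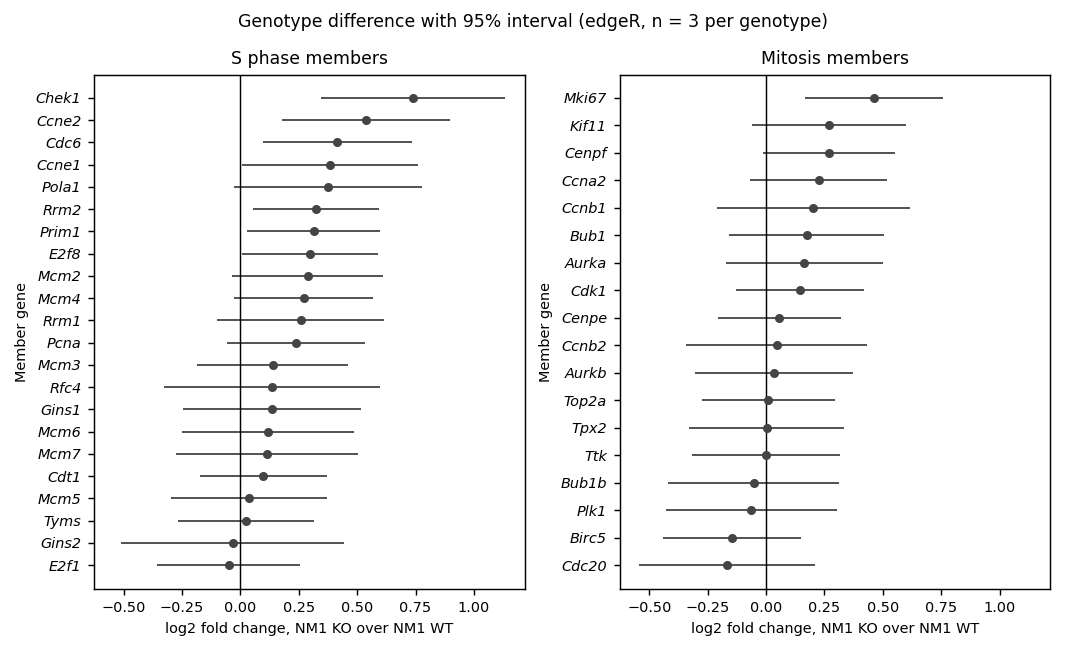
Log2 fold change of each member, NM1 KO over NM1 WT, with its 95% interval from edgeR (n = 3 per genotype), S phase members on the left and mitosis members on the right, ordered by size. S phase members run from -0.05 (E2f1) to 0.74 (Chek1) and mitosis members from -0.17 (Cdc20) to 0.46 (Mki67).

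Among the regulators of S phase entry, Chek1, the checkpoint kinase that holds the cycle when forks stall, differed most. Chek1 (ENSMUSG00000032113, chr9:36708482-36727065, minus strand) stood at 24.9, 30.2 and 28.6 CPM in NM1 KO 1 to 3 and at 14.1, 20.1 and 16.0 CPM in NM1 WT 1 to 3. All NM1 KO libraries lay above all NM1 WT libraries, and the gap came closest between NM1 KO 1 and NM1 WT 2. Its log2 fold change was 0.74 (SE 0.18, interval 0.34 to 1.13, edgeR adjusted p = 0.0858), and its unadjusted p was 0.00158. Over the alternatives its adjusted p ran from 0.00669 without a low-count filter to 0.344 without NM1 WT 1.

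Ccne2 and Ccne1 encode the E cyclins, which drive cells from G1 into S phase. Ccne2 (ENSMUSG00000028212, chr4:11191351-11204779, plus strand) stood at 69.5, 100.7 and 84.0 CPM in NM1 KO and 52.5, 69.3 and 53.3 CPM in NM1 WT. The genotypes touched without overlapping, since NM1 KO 1 and NM1 WT 2 differed by less than 1 CPM, and the log2 fold change was 0.54 (SE 0.16, edgeR adjusted p = 0.142). Over the alternatives the adjusted p of Ccne2 ran from 0.0110 without a low-count filter to 0.506 without NM1 KO 2. Of the 3495 exon bases of Ccne2, 609 overlap exons of Ints8 on the other strand, and without a stated strand setting reads there cannot be told apart. Ccne1 stood at 65.0, 102.2 and 106.6 CPM in NM1 KO and 71.7, 69.0 and 69.0 CPM in NM1 WT. Its NM1 KO libraries split around the tight NM1 WT values, with NM1 KO 1 the lowest of all 6 (log2 fold change 0.38, SE 0.17, edgeR adjusted p = 0.289).

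E2f1 is an activating E2F factor and E2f8 a repressive one that E2F factors themselves induce. E2f1 stood at 82.8, 68.2 and 89.8 CPM in NM1 KO and 85.0, 74.5 and 90.0 CPM in NM1 WT, with overlapping ranges (log2 fold change -0.05). E2f8 stood at 123.2, 139.0 and 149.9 CPM in NM1 KO and 107.5, 125.7 and 101.8 CPM in NM1 WT. NM1 WT 2 lay above NM1 KO 1, so the groups overlapped (log2 fold change 0.30, SE 0.13, edgeR adjusted p = 0.285). E2f8 also shares 610 exon bases with Gm2788 on the other strand, which held 28 to 62 counts per library.

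Licensing of origins needs Cdc6 and Cdt1, which together load the MCM ring, and the GINS complex then switches the helicase on. Cdc6 (ENSMUSG00000017499, chr11:98907801-98923940, plus strand) stood at 82.8, 102.7 and 120.0 CPM in NM1 KO and 74.3, 81.0 and 73.8 CPM in NM1 WT. Each NM1 KO library lay above all NM1 WT libraries, NM1 KO 1 only narrowly, and the log2 fold change was 0.42 (SE 0.15, edgeR adjusted p = 0.186). Cdt1 overlapped between genotypes, with means of 114 ± 11.2 (NM1 KO) against 107 ± 5.85 CPM (NM1 WT; SD, n = 3 each, log2 fold change 0.099). Gins1 overlapped as well, with 30.5, 35.1 and 45.5 CPM in NM1 KO and 29.4, 35.2 and 36.6 CPM in NM1 WT (log2 fold change 0.13). Gins2 had the lowest level of all members per exon length, 3.88 CPM per kb, and stood at 12.4, 14.1 and 20.7 CPM in NM1 KO and 16.4, 15.3 and 16.5 CPM in NM1 WT. Only NM1 KO 3 lay above the NM1 WT range for Gins2 (log2 fold change -0.03, SE 0.22), and 2758 of its 4097 exon bases overlap Gse1 on the other strand.

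Mcm2 to Mcm7 encode the 6 subunits of the replicative helicase. All 6 had positive log2 fold changes, 0.037 for Mcm5 to 0.29 for Mcm2, with edgeR adjusted p between 0.347 and 0.936, and all 6 overlapped between genotypes. Mcm2 stood at 213.3, 255.9 and 309.2 CPM in NM1 KO and 203.5, 231.5 and 202.2 CPM in NM1 WT. Mcm4 had the same order, with 177.8, 222.0 and 238.5 CPM against 171.2, 189.0 and 169.2 CPM. In both genes NM1 KO 2 and NM1 KO 3 lay above NM1 WT and NM1 KO 1 within it. Mcm7 differed in pattern, with 244.8, 261.4 and 406.7 CPM in NM1 KO and 265.2, 283.3 and 295.5 CPM in NM1 WT. Here NM1 KO 3 was the only NM1 KO library above NM1 WT, and both others lay below it. Mcm5 and Mcm6 gave the same picture of a single high NM1 KO library: Mcm5 stood at 302.2 CPM in NM1 KO 3 and at 211.2 to 254.1 CPM in the other libraries. Mcm6 stood at 333.4 CPM in NM1 KO 3 and at 210.6 to 279.9 CPM in the others. For Mcm3 the value was 264.7 CPM in NM1 KO 3 and 179.6 to 222.3 CPM elsewhere. Without NM1 KO 3 the log2 fold changes of Mcm3, Mcm5, Mcm6 and Mcm7 were -0.0041, -0.16, -0.086 and -0.15. Per exon length the 6 subunits, which form a ring with 1 copy of each, lay between 33.9 (Mcm2) and 66.2 (Mcm7) CPM per kb.

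At the fork, Pcna is the sliding clamp, Rfc4 a subunit of its loader, and Pola1 and Prim1 the catalytic subunits of polymerase alpha-primase. Prim1 (ENSMUSG00000025395, chr10:128015168-128030037, plus strand) stood at 57.2, 59.0 and 70.6 CPM in NM1 KO and 49.4, 51.9 and 49.0 CPM in NM1 WT. The groups did not overlap, and the log2 fold change was 0.31 (SE 0.13, edgeR adjusted p = 0.259). Pola1 stood at 36.2, 49.3 and 49.0 CPM in NM1 KO and 27.2, 41.4 and 35.0 CPM in NM1 WT, with NM1 WT 2 above NM1 KO 1 (log2 fold change 0.37, SE 0.18). Pcna, the member with the highest level per exon length at 201 CPM per kb, stood at 449.1, 545.1 and 573.5 CPM in NM1 KO and 409.4, 490.0 and 430.2 CPM in NM1 WT (log2 fold change 0.24). NM1 WT 2 again lay above NM1 KO 1. The Pcna pseudogene Pcna-ps2 held 78 to 182 counts per library, far fewer than Pcna itself. Rfc4 stood at 26.9, 36.2 and 43.4 CPM in NM1 KO and 25.0, 40.5 and 31.4 CPM in NM1 WT, a wide spread in both genotypes (log2 fold change 0.14, SE 0.21).

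Deoxynucleotides for copying come from ribonucleotide reductase, made of Rrm1 and the S phase subunit Rrm2, and from thymidylate synthase, Tyms. Rrm2 (ENSMUSG00000020649, chr12:24708241-24714146, plus strand) stood at 442.1, 484.7 and 545.6 CPM in NM1 KO and at 393.6, 395.6 and 387.5 CPM in NM1 WT. Its NM1 WT values were the tightest of all members, with an SD of 0.016 on the log2 scale, and every NM1 KO library lay above them (log2 fold change 0.32, SE 0.12, edgeR adjusted p = 0.214). Rrm1 stood at 281.6, 329.6 and 438.8 CPM in NM1 KO and 273.9, 324.4 and 279.6 CPM in NM1 WT, so NM1 KO 2, narrowly, and NM1 KO 3 lay above every NM1 WT library and NM1 KO 1 within their range (log2 fold change 0.26). Tyms did not follow Rrm2, with means of 106 ± 13.3 (NM1 KO) against 104 ± 7.78 CPM (NM1 WT; SD, n = 3 each, log2 fold change 0.022).

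**Figure D3:**
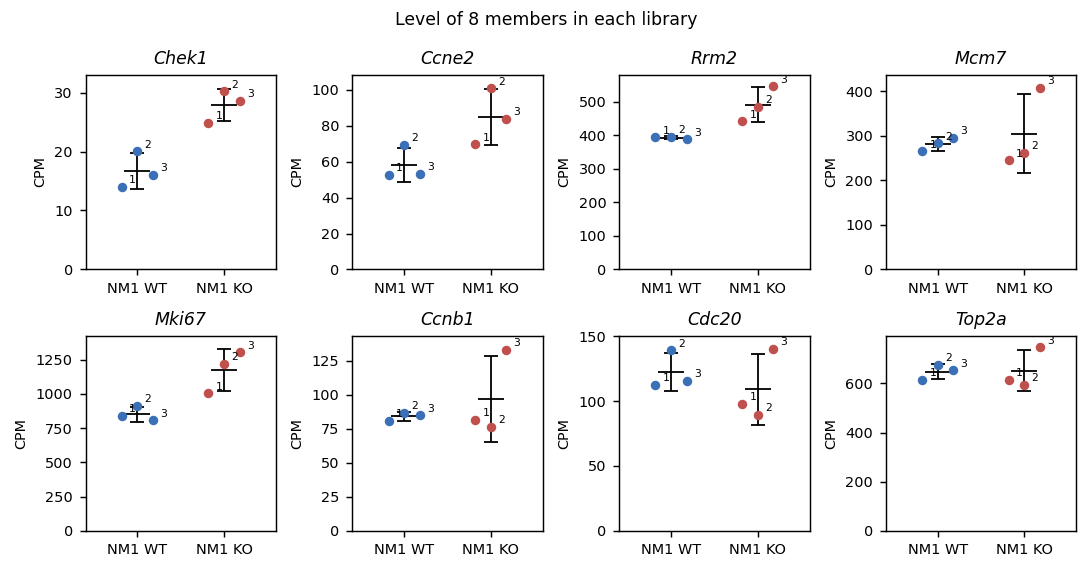
CPM of 8 members in each library (points, numbered by replicate) with the mean and SD of each genotype, NM1 WT in blue and NM1 KO in red, each axis starting at 0. Chek1, Ccne2, Rrm2 and Mki67 do not overlap between genotypes, while in Mcm7 and Ccnb1 the library NM1 KO 3 (406.7 and 133.2 CPM) stands above the rest.

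Mki67, the proliferation antigen Ki-67 that coats mitotic chromosomes, differed most among mitosis members. Mki67 (ENSMUSG00000031004, chr7:135689784-135716361, minus strand) stood at 1004, 1220 and 1302 CPM in NM1 KO and 838.9, 912.1 and 805.6 CPM in NM1 WT. The genotypes did not overlap, and the log2 fold change was 0.46 (SE 0.13, interval 0.17 to 0.76, edgeR adjusted p = 0.128). Its adjusted p ran from 0.0241 in DESeq2 to 0.426 without NM1 WT 1. Top2a, the topoisomerase that untangles sister chromatids, stood at 615.5, 594.8 and 746.9 CPM in NM1 KO and 614.6, 675.9 and 652.5 CPM in NM1 WT. NM1 KO 2 lay below the NM1 WT range, NM1 KO 1 at its low end and NM1 KO 3 above it, which gave a log2 fold change of 0.01 (SE 0.13, interval -0.27 to 0.29).

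Cdk1 with its A and B cyclins drives entry into mitosis, and the 4 genes had log2 fold changes of 0.046 to 0.23, with edgeR adjusted p from 0.43 to 0.931. Ccna2 stood at 246.1, 269.3 and 319.2 CPM in NM1 KO and 245.3, 252.4 and 216.1 CPM in NM1 WT. NM1 KO 2 and NM1 KO 3 lay above NM1 WT, but 510 of its exon bases overlap Exosc9 on the other strand. Ccnb1 stood at 81.4, 76.5 and 133.2 CPM in NM1 KO and 80.8, 87.0 and 85.1 CPM in NM1 WT, and Ccnb2 at 140.9, 157.1 and 237.0 CPM against 162.5, 176.7 and 179.0 CPM. In both B cyclins NM1 KO 3 alone was high: without it their log2 fold changes were -0.095 and -0.21. Cdk1 varied less, with 201.7, 209.1 and 244.0 CPM in NM1 KO and 204.1, 184.1 and 203.8 CPM in NM1 WT.

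Bub1, Bub1b and Ttk encode kinases and a pseudokinase of the spindle checkpoint, which restrains the activator of the anaphase-promoting complex, Cdc20. Cdc20 had the lowest log2 fold change of all members, -0.17 (SE 0.17, interval -0.54 to 0.21), with 98.0, 89.2 and 140.2 CPM in NM1 KO and 112.7, 139.0 and 115.8 CPM in NM1 WT. NM1 KO 1 and NM1 KO 2 lay below all NM1 WT libraries and NM1 KO 3 above them. Bub1b showed the same split, with 85.2, 72.7 and 113.7 CPM against 89.0, 106.2 and 86.6 CPM (log2 fold change -0.053). Bub1 stood at 43.5, 40.3 and 51.8 CPM in NM1 KO and 34.9, 42.3 and 43.0 CPM in NM1 WT, with overlap (log2 fold change 0.17). Ttk averaged 29.6 ± 2.57 CPM in NM1 KO against 29.6 ± 1.55 in NM1 WT (SD, n = 3 each). For Ttk the interval of the log2 fold change was -0.32 to 0.32.

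Aurka, Aurkb and Plk1 encode mitotic kinases, and Birc5 (survivin) is a partner of Aurkb in the chromosomal passenger complex. Plk1 stood at 105.0, 99.0 and 154.9 CPM in NM1 KO and 118.0, 133.7 and 123.3 CPM in NM1 WT, the same split as Cdc20. Aurka reached 130.8 CPM in NM1 KO 3 and Aurkb 104.4 CPM, each the highest of its 6 libraries, while their other libraries ran from 88.7 to 108.5 CPM and from 75.5 to 99.8 CPM. Birc5 went its own way, with 344.8, 325.5 and 370.0 CPM in NM1 KO and 407.3, 321.6 and 422.7 CPM in NM1 WT. NM1 WT 2 was low and both other NM1 WT libraries were above all NM1 KO libraries (log2 fold change -0.15, SE 0.14). The log2 fold changes of Aurka, Aurkb and Plk1 were 0.16, 0.036 and -0.064.

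The kinetochore and spindle genes Cenpe, Cenpf, Kif11 and Tpx2 encode a kinetochore motor, a large kinetochore protein, the motor that pushes spindle poles apart and a factor that activates Aurora A on the spindle. Cenpf stood at 135.8, 138.1 and 171.1 CPM in NM1 KO and 125.4, 117.5 and 126.2 CPM in NM1 WT, without overlap (log2 fold change 0.27, SE 0.13, edgeR adjusted p = 0.325). Kif11 stood at 192.1, 188.9 and 244.1 CPM in NM1 KO and 158.1, 203.8 and 156.1 CPM in NM1 WT, where NM1 WT 2 lay among the NM1 KO values (log2 fold change 0.27, SE 0.15). Tpx2 stood at 182.2, 166.9 and 247.6 CPM in NM1 KO and 188.7, 207.5 and 199.6 CPM in NM1 WT. Its means were 198.9 and 198.6 CPM, but NM1 KO 3 lay above and both other NM1 KO libraries below every NM1 WT library. Cenpe varied little, from 114.0 to 132.5 CPM over all 6 libraries.

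The NM1 KO libraries differed from one another across most members. NM1 KO 3 held the highest of the 6 values for 35 of 40 members, 18 of 22 in S phase and 17 of 18 in mitosis, against 16.6% of tested genes, and it lay above the mean of the 6 libraries for all 40. The exceptions were Ccne2, Pola1 and Chek1, highest in NM1 KO 2, and E2f1 and Birc5, highest in NM1 WT 3. Against the mean of NM1 KO 1 and NM1 KO 2, NM1 KO 3 was higher by a median of 0.33 on the log2 scale for S phase members and 0.34 for mitosis members, and by 0.01 over all tested genes. Ccnb1 (0.76), Mcm7 (0.68), Ccnb2 (0.67) and Gins2 (0.65) had the widest gaps on that scale and Ccne2 (0.0051) and Chek1 (0.061) the narrowest. The median SD within a genotype, on the log2 scale, for S phase members was 0.26 among NM1 KO and 0.12 among NM1 WT libraries, and for mitosis members 0.20 and 0.094. Over all tested genes it was 0.23 and 0.25.

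**Figure D4:**
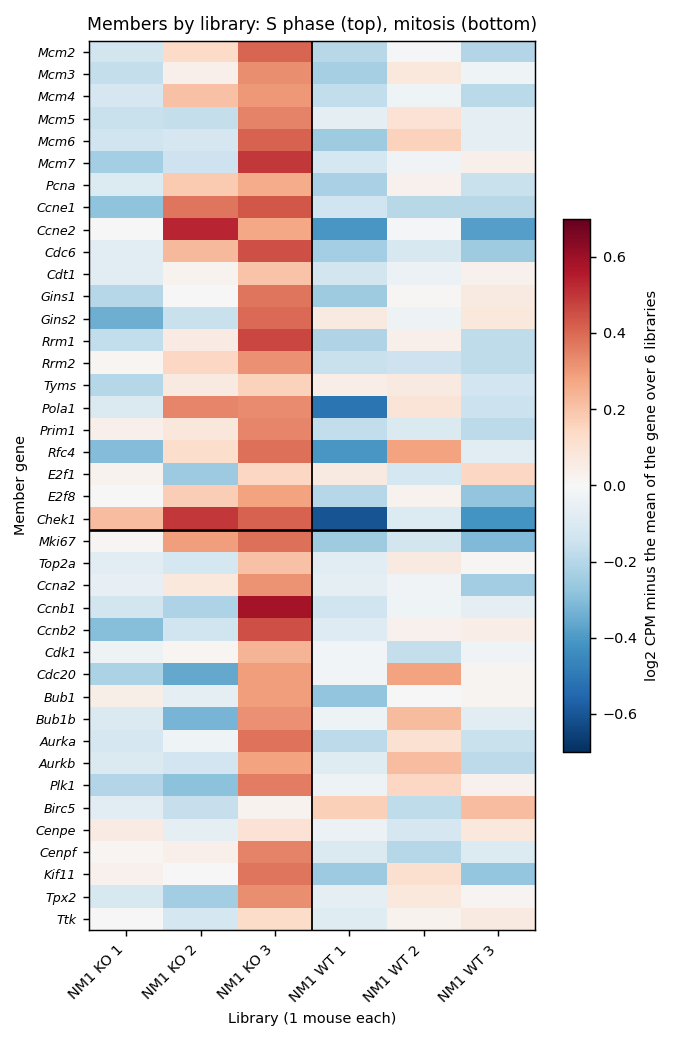
Log2 CPM of each member in each library minus its mean over the 6 libraries (red above, blue below), S phase members above the horizontal line and mitosis members below it, NM1 KO libraries left of the vertical line. The NM1 KO 3 column is above 0 for all 40 members, and in NM1 KO 2 most S phase members are above 0 while most mitosis members are below it.

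NM1 KO 2 and NM1 KO 1 differed in S phase members and not in the same way in mitosis members. NM1 KO 2 lay above NM1 KO 1 for 20 of 22 S phase members, by a median of 0.22 on the log2 scale, but for 6 of 18 mitosis members, with a median of -0.066. Over all tested genes the median was 0.00012, with 7538 of 15069 higher in NM1 KO 2. Ccne1 (0.65), Ccne2 (0.53) and Pola1 (0.44) led the S phase differences, and Bub1b (-0.23), Cdc20 (-0.14) and Tpx2 (-0.13) stood at the other end of the mitosis members. The lowest library was NM1 KO 2 for 7 of 18 mitosis members and 2 of 22 S phase members, against 21.6% of all tested genes. For S phase members the lowest library was most often NM1 WT 1, in 10 of 22, against 18.3% of all tested genes.

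A score for each set, the mean log2 CPM of its members in a library, sums up these patterns. The S phase score was 6.64, 6.86 and 7.10 in NM1 KO 1 to 3 and 6.55, 6.75 and 6.63 in NM1 WT 1 to 3, so NM1 WT 2 lay above NM1 KO 1 and the genotypes overlapped. The mitosis score was 7.16, 7.13 and 7.54 in NM1 KO and 7.15, 7.26 and 7.19 in NM1 WT, where NM1 KO 2 was the lowest of all. The mitosis score minus the S phase score was 0.522, 0.273 and 0.442 in NM1 KO and 0.598, 0.511 and 0.560 in NM1 WT. This difference averaged 0.412 ± 0.127 in NM1 KO and 0.556 ± 0.0435 in NM1 WT (SD, n = 3 each), and NM1 KO 1 lay above NM1 WT 2. It is given without a test, since the members were chosen with results of these data known.

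NM1 KO 3 is also the only NM1 KO library without Y-linked counts, so its high values and that state cannot be told apart within NM1 KO. Among the libraries with Y-linked counts, NM1 KO 1 and NM1 KO 2 against NM1 WT 2, the median log2 difference was 0.014 for S phase members (13 of 22 positive) and -0.12 for mitosis members (6 of 18 positive). Among those without, NM1 KO 3 against NM1 WT 1 and NM1 WT 3, it was 0.52 (22 of 22) and 0.40 (17 of 18). The medians of all tested genes were 0.0015 and 0.021. Chek1 was higher in NM1 KO in both, by 0.45 and 0.93 on the log2 scale, and Mki67 by 0.28 and 0.66. With 1 or 2 libraries on a side these values carry no test. With the Y-linked state as a term in the fit, 22 of 22 S phase members and 14 of 18 mitosis members were positive, with medians of 0.26 and 0.11, and 0 passed in either set.

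Markers of 1 dividing cell type, the erythroblast, ran in parallel with the S phase members over the NM1 KO libraries. Erythroblast markers, from a list of 15 genes of haemoglobin-making precursors, were positive in 15 of 15 with a median log2 fold change of 0.34, and 0 passed the threshold. At an unadjusted p under 0.05, 9 of the 15 were higher in NM1 KO, against 1272 of 15069 tested genes. The summed level of the list, without TMM factors like the sums of the other lists, ran from 10630 to 14150 CPM in NM1 KO. In NM1 WT it ran from 9313 to 9812 CPM. NM1 KO 3 was the highest library for 14 of the 15 markers. The erythroblast score was 8.78, 9.01 and 9.22 in NM1 KO 1 to 3, the same order of libraries as the S phase score, and 8.64, 8.72 and 8.64 in NM1 WT, where NM1 WT 2 was again the highest. The genotypes did not overlap in the erythroblast score. Car2, carbonic anhydrase of red cells, averaged 2724 ± 441 CPM in NM1 KO against 1756 ± 248 in NM1 WT (SD, n = 3 each, log2 fold change 0.63, edgeR adjusted p = 0.0867). The part of erythroblast RNA in the members' values was not tested.

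**Figure D5:**
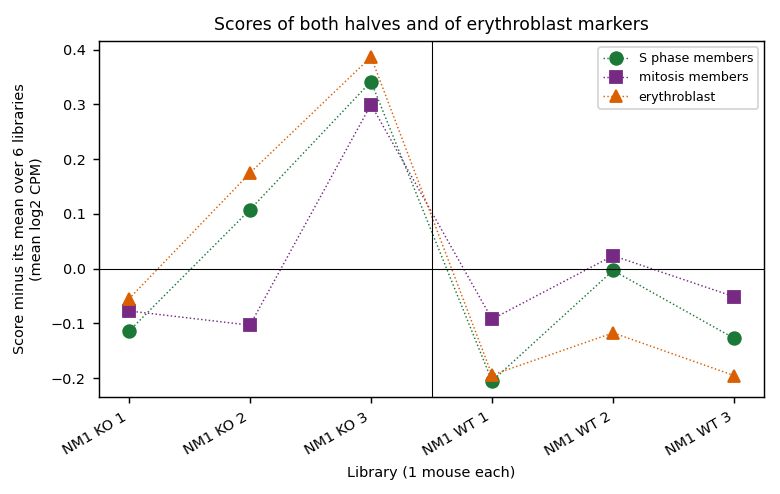
Scores of the S phase members (green circles), mitosis members (purple squares) and erythroblast markers (orange triangles) in each library, each as mean log2 CPM minus its mean over the 6 libraries; dotted lines only join the points of a score. All 3 are highest in NM1 KO 3, and in NM1 KO 2 the mitosis score (7.13) is at its lowest while the S phase score (6.86) is its second highest.

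Markers of the other dividing populations did not share that order. Granulocyte precursor markers were negative in 7 of 8, with a median of -0.32 and summed levels of 2473 to 3255 CPM in NM1 KO and 3022 to 4467 CPM in NM1 WT. Within NM1 KO, NM1 KO 3 lay above the mean of NM1 KO 1 and NM1 KO 2 for 8 of 8 of them (median difference 0.31). Their score was 7.85, 7.71 and 8.07 in NM1 KO, the order of the mitosis score, and 8.03, 8.52 and 7.89 in NM1 WT. NM1 WT 2 was the highest NM1 WT library in both scores. Pro-B and pre-B markers were positive in 9 of 12, with a median of 0.17, and 0 passed. They summed to 805 to 1110 CPM in NM1 KO and 760 to 985 CPM in NM1 WT, with NM1 KO 1 the highest library. Their score was 5.476, 5.233 and 5.396 in NM1 KO and 4.974, 5.005 and 5.114 in NM1 WT, without overlap. Stem and progenitor markers were positive in 5 of 10, with a median of 0.033, and 0 passed. They summed to 226 to 246 CPM in NM1 KO and 188 to 248 CPM in NM1 WT. Of markers of cells that mostly do not divide, 10 of 10 mature neutrophil genes were negative (median -0.44, 0 passed), with 21030 to 27300 CPM in NM1 KO and 26260 to 35390 CPM in NM1 WT. Megakaryocyte and platelet markers were positive in 12 of 12, and 10 passed (median 1.25, 2288 to 4874 against 1086 to 1477 CPM). Stroma and bone markers were positive in 8 of 8, and 4 passed (1306 to 2217 against 605 to 758 CPM). These 2 lists were highest in NM1 KO 2. Skeletal muscle genes were positive in 6 of 6 tested, and 3 passed (56.9 to 72.3 against 14.1 to 23.9 CPM), with 1 of the 8 listed at 0 in every library. Of 8 T and NK markers Cd4 passed, higher in NM1 KO, while 5 were negative (median -0.17). Of 8 monocyte and macrophage markers Mrc1 and Vcam1 passed, higher in NM1 KO, while 5 were negative (median -0.24), 4 of them at an unadjusted p under 0.05. Of 6 plasma cell markers 0 passed. Their score was 5.17, 5.33 and 5.68 in NM1 KO, the same order of libraries as the S phase score. In NM1 WT it was 5.42, 5.03 and 5.39, with NM1 WT 2 the lowest. The part of these cell types in the members' values was not tested.

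None of the wider cell cycle genes, listed by function, passed the test. Of 42 other replication genes 0 passed the threshold, 35 were positive with a median of 0.12, and 9 had an unadjusted p under 0.05, all higher in NM1 KO: Orc1, Orc5, Orc6, Dbf4, Uhrf1, Dut, Tipin, Wdhd1 and Slbp. Over all 15069 tested genes 16.8% had such a p in either direction, 1272 higher and 1253 lower in NM1 KO. Orc1, the largest subunit of the origin recognition complex, averaged 30.4 ± 1.41 CPM in NM1 KO against 21.6 ± 0.392 in NM1 WT (SD, n = 3 each), tight and apart in both genotypes (log2 fold change 0.50, SE 0.14, edgeR adjusted p = 0.128). Dut, which removes dUTP so that uracil stays out of DNA, stood at 176 ± 23.7 and 132 ± 10.2 CPM (SD, n = 3 each, log2 fold change 0.42, edgeR adjusted p = 0.154). Of 41 other mitosis genes 0 passed, and 26 were positive with a median of 0.075. An unadjusted p under 0.05 was found for 4 of the 41 (Kif18a, Nusap1, Cks2 and Cdc25b), all higher in NM1 KO, against 1272 of 15069 tested genes. Kif18a, a motor that aligns chromosomes, stood at 26.1 ± 4.14 and 17.5 ± 1.89 CPM (SD, n = 3 each, log2 fold change 0.58, edgeR adjusted p = 0.146), and Nusap1, a spindle protein, had a log2 fold change of 0.33. NM1 KO 3 was the highest library for 26 of the 42 replication genes and 33 of the 41 mitosis genes. Against the mean of NM1 WT, the mitosis genes had a median log2 difference of 0.30 in NM1 KO 3, but of -0.031 in NM1 KO 1 (15 of 41 positive) and -0.05 in NM1 KO 2 (17 of 41 positive). For the replication genes the medians were 0.31 in NM1 KO 3, 0.063 in NM1 KO 1 (24 of 42 positive) and 0.10 in NM1 KO 2 (23 of 42 positive).

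Genes that control G1 and brake the cycle split at an unadjusted p under 0.05, where 4 of 30 were higher and 4 lower, against 16.8% of all tested genes in either direction, and 0 passed the threshold. Over all 30, 21 were positive, with a median of 0.086. The higher ones were Cdkn1b, the inhibitor p27, the pocket protein Rb1, and E2f3 and E2f4. The lower ones were Cdk6, a G1 kinase, and the inhibitors Cdkn1a, Cdkn2a and Cdkn2b. Cdkn1b stood at 202.5, 230.2 and 188.5 CPM in NM1 KO and 152.3, 152.8 and 132.1 CPM in NM1 WT, without overlap (log2 fold change 0.51, SE 0.13, edgeR adjusted p = 0.0944). Cdkn2a stood at 11.3, 8.75 and 7.32 CPM in NM1 KO and 34.1, 10.8 and 29.5 CPM in NM1 WT (log2 fold change -1.44, SE 0.35, edgeR adjusted p = 0.0869). NM1 WT 2 lay among the NM1 KO values for Cdkn2a and far below both other NM1 WT libraries.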

How the data were processed

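The authors deposited raw read counts per Ensembl gene for 6 libraries, 1 per mouse. Per the submitters' processing notes, HTSeq, HISAT2 2.0.4, Trimmomatic 0.36, SAMtools 0.1.19 and FastQC were used, with builds GRCm38 and mm10. Neither the annotation release nor the strand setting is given in the sources used here. Low counts were nearly all even (6 genes with a count of 1 and 2417 with a count of 2 in NM1 KO 1), so both mates appear to have been counted.

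Here 46091 of 46603 genes matched GENCODE M21 by identifier. Genes kept by filterByExpr (15069) were tested with edgeR 4.0.16 in R 4.3.3 (TMM scaling, quasi-likelihood, genotype only), checked on simulated data, with Benjamini-Hochberg adjustment over all of them. Alternatives used limma 3.58.1 and DESeq2 1.42.0, other scalings, filters and count treatments, a replicate block and each library left out. A level of 1 CPM stood for 14.7 to 23.0 counts. CPM per kb divides by the union of exons. The log2 CPM values used a prior count of 2.

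Members and lists were chosen with earlier results of these data known. Text names all members, Myo1c and, from each other list, up to 4 genes past the threshold or the 2 of smallest p; other names were chosen after their values were seen. A gene that this rule takes is not reported here. Library comparisons, the Y-linked state and the 250-base window were added after the data were seen.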

Additional observations from a re-analysis of the deposited data

How the results depend on the processing

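The count of all tested genes past the threshold was 117 of 15069 in the main fit. It was 1138 of 24358 tested genes without a low-count filter and 207 of 14889 without haemoglobin, immunoglobulin and mitochondrial genes. Of 15069 genes it was 794 in DESeq2, 421 with a replicate block, 60 with a Y-linked covariate and 37 in limma-voom. With each library left out it ran from 26 (without NM1 WT 1) to 344 (without NM1 WT 2). S phase members past the threshold numbered 2 without a filter (Chek1 and Ccne2), 1 in DESeq2 (Chek1), 2 with the replicate block (Chek1 and Ccne2) and 0 to 1 with a library left out (Chek1 without NM1 WT 2). Mitosis members past it numbered 1 without a filter and 1 in DESeq2, Mki67 in each, and 0 to 0 with a library left out. The other cell cycle lists gave 3 without a filter, 2 in DESeq2, 2 with the block and 0 to 2 with a library left out. The cause of these shifts was not tested. Same-numbered libraries of the 2 genotypes deviated together weakly (r = 0.064, 0.116 and 0.061 across genes, each the best match of its library). The other pairs ran from -0.078 to 0.017. The labels give no pairing of mice, so the main fit did not pair them. Whether the numbers pair mice was not tested.

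With a library left out, the median log2 fold change ran from 0.10 (without NM1 KO 3) to 0.35 (without NM1 KO 1) for S phase and from -0.081 (without NM1 KO 3) to 0.14 (without NM1 KO 1) for mitosis members, and the genotype difference of mitosis minus S phase scores from -0.199 to -0.0746. Of 680 member values over all alternatives 48 changed sign, 18 of them with all libraries in, and 22 members kept their sign throughout. Tpx2 fell below 0 with RLE scaling (-0.00521), the 1 CPM filter (-0.00108), DESeq2 (-0.00523), limma-voom (-0.0187), the block (-0.0180), halved counts (-0.00172) and without haemoglobin, immunoglobulin and mitochondrial genes (-0.00380). Ttk did so with RLE scaling (-0.00637), the 1 CPM filter (-0.00262), DESeq2 (-0.00646), limma-voom (-0.00370), the block (-0.00166), halved counts (-0.00274), thinned counts (-0.0111) and without those genes (-0.00528). Gins2 turned positive with total-count scaling (0.00609) and the Y-linked covariate (0.0629), and E2f1 with that covariate (0.028).

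With a library left out, sign changes gave these ranges: Mcm3 -0.0041 to 0.24, Mcm5 -0.16 to 0.13, Mcm6 -0.086 to 0.24, Mcm7 -0.15 to 0.24, Gins1 -0.042 to 0.25, Gins2 -0.28 to 0.11, Tyms -0.056 to 0.12, Rfc4 -0.034 to 0.34 and E2f1 -0.14 to 0.057. For mitosis they were Top2a -0.099 to 0.076, Ccnb1 -0.095 to 0.35, Ccnb2 -0.21 to 0.19, Bub1b -0.25 to 0.086, Aurka -0.0039 to 0.27, Aurkb -0.11 to 0.17, Plk1 -0.29 to 0.059, Tpx2 -0.19 to 0.12 and Ttk -0.066 to 0.063.

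In the last 100 bases before the start, E2F letters matched 16.7% of S phase and 0% of mitosis members (3.48% of tested genes). CHR letters matched 46.7% of mitosis and 16.7% of S phase members there (7.97% of tested genes). In the 250 bases before the start CHR letters matched 73.3% of mitosis members and 23.1% of tested genes, against 100% and 25.1% in the whole window. The CHR matches of Bub1, Aurka, Cenpe and Ttk lay only after the start. With 3 mice a genotype, the SE of a member's log2 fold change was 0.12 to 0.22.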
